A study of Drosophila melanogaster with 266 samples.

Results

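The 5 serotonin receptor genes of Drosophila melanogaster, 5-HT1A, 5-HT1B, 5-HT2A, 5-HT2B and 5-HT7, were followed by gene name through the expression tables of the adult visual system. All 5 were present among 13931 coding genes, and all 5 were among the 12377 genes for which the authors modeled an expression state. Nuclei carrying the tag UNC84-2XGFP, expressed under split-GAL4 or GAL4 drivers, were captured from heads (from appendages for 1 muscle type) of adult flies kept on a light:dark cycle, and their nuclear RNA was sequenced. The deposited tables covered 266 libraries, of which 167 passed the authors' quality criteria and belonged to a single cell type: 82 drivers and 67 cell types, with 2 libraries in 51 types, 3 in 1, 4 in 14 and 6 in 1. Capture followed 1 of 2 protocols: INTACT, a single capture on anti-GFP beads (40 of the 167 libraries), and TAPIN, in which the captured nuclei are released by a protease and captured again (127 libraries). The tag came from the reporter 10XUAS_UNC84_attP2 in 250 of all libraries, 5XUAS_UNC84_attP18 in 6 and 13XLexAop2_UNC84_attP18 in 2, and the other 8 libraries were made from dissected lamina and dissected rest of the optic lobe without a tag.

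Serotonin receptors are receptors of the cell surface that couple to G proteins. In Drosophila 5-HT1A and 5-HT1B act through inhibitory G proteins and lower cyclic AMP, 5-HT2A and 5-HT2B act through Gq and phospholipase C and raise intracellular calcium, and 5-HT7 acts through Gs and raises cyclic AMP. In the optic lobe serotonin comes from wide-field neurons that innervate several neuropils, and which receptors a cell makes bears on how it can respond.

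Levels are given as TPM, a relative transcript abundance corrected for transcript length, so that the receptors can be set beside each other. Expression states rest on the authors' modeled probability of expression in a cell type. A gene was called on where this probability reached 0.8, off where it did not exceed 0.2, and ambiguous in the interval between. TPM keeps no sequencing depth, so the precision of a value was judged from the spread between libraries. Nothing in the labels shows that libraries with the same driver came from separate cultures of flies. The p-values below therefore measure only the spread between these libraries. In comparisons of cell classes they measure the spread between means of cell types. The labels were checked against defining markers. elav was at 407 to 2165 TPM in the 62 neuronal types and at 247 to 365 TPM in the 3 glial types. repo was at 81.7 to 636 TPM in the glial types against 0.08 to 21.4 TPM in neurons. ey was at 457 to 1205 TPM in the Kenyon cells. Muscles_Head went against its label in part, with elav at 445 and 560 TPM and Mhc, the muscle myosin heavy chain, at 267 and 347 TPM. LC10b, a lobula projection neuron, held Mhc at a mean of 810 TPM. The part of muscle RNA in its receptor levels was not tested.

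5-HT1A (FBgn0004168) lies on chromosome arm 2R at 19067155 to 19121958 on the plus strand, and 5-HT1B (FBgn0263116) at 19022325 to 19032642 on the minus strand of the same arm (positions from the BDGP6.54 annotation of the dm6 build). They are 34512 bases apart, with 3 coding genes between them. The other receptors lie on 3R: 5-HT2A (FBgn0087012) at 4612870 to 4633304 and 5-HT2B (FBgn0261929) at 8578205 to 8629996, both on the plus strand, and 5-HT7 (FBgn0004573) at 30968236 to 31016875 on the minus strand. One transcript carried most of the TPM for 5-HT2B (97.2%) and 5-HT7 (92.5%), and 5-HT1A has 1 annotated coding transcript. The 3 transcripts of 5-HT1B took 64.3%, 27.6% and 8.13% of its summed TPM. These shares swung between replicates, with the share of a single transcript at 0 and 89.6% in the 2 libraries of Pm4. The 5 transcripts of 5-HT2A took 9.6% to 33.7% each, and the one with 33.7% has a shorter coding region (1914 bases) than the others (2604 to 2790 bases).

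The cell types were grouped into photoreceptors (4 types), lamina monopolar cells (5), lobula projection neurons (9), 32 other optic lobe neurons, Kenyon cells of the mushroom body (4), PAM dopaminergic neurons (3), neurons of the protocerebral bridge (5), glia (3) and muscle (2). Each receptor was on in a wide but different set of types. 5-HT1B was on in 49 of 67 types (73.1%), 5-HT7 in 38 (56.7%), 5-HT1A in 30 (44.8%), 5-HT2A in 28 (41.8%) and 5-HT2B in 17 (25.4%). Of the 335 pairs of a receptor and a cell type 162 were on (48.4%), 151 off and 22 ambiguous, against 47.6% of pairs on over all modeled genes, so that the receptors as a group were on about as often as genes at large. All 5 receptors differed among the 67 types (limma F test, 5 of 5 called at an adjusted p of 0.05). This call was made for 98.3% of the genes tested. The share of variance of log2(TPM + 1) that lay between types was 97.4% for 5-HT1A, 96.7% for 5-HT1B, 95.4% for 5-HT2A, 95.8% for 5-HT2B and 92.5% for 5-HT7, and the median over 11550 genes was 77.3%.

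In the order of levels most neighbouring types were not separated. Of the 66 pairs of neighbours in each order, the libraries overlapped in 54 pairs for 5-HT1A, 54 for 5-HT1B, 59 for 5-HT2A, 57 for 5-HT2B and 58 for 5-HT7. The highest type stood clear of the next for 4 receptors: the Kenyon cells KC_ab_p for 5-HT1A, the medulla neuron Dm10 for 5-HT1B, Dm1 for 5-HT2A and the lamina neuron L3 for 5-HT2B. For 5-HT7 the first gap between neighbours came at rank 17, between Tm1 and Tm3. Such overlaps and gaps were not counted over all genes, so they do not show whether the receptors differ from other genes. The lowest type called on and the highest type called off were at 31.9 and 20.1 TPM for 5-HT1A, 13.9 and 4.68 for 5-HT1B, 40.7 and 22.8 for 5-HT2A, 29.1 and 18.5 for 5-HT2B, and 34 and 35.1 for 5-HT7, whose states were thus not separated by level.

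5-HT1A was strongest in a few neurons of unrelated classes. Its 2 libraries held 752 and 818 TPM in KC_ab_p, 565 and 544 TPM in LPLC1, a columnar projection neuron of the lobula and lobula plate, and 551 and 512 TPM in TmY3, a transmedullary neuron. LC16, another lobula projection neuron, followed with a mean of 452 TPM (range 382 to 580, n = 4). The median of the 30 types with 5-HT1A on was 162.9 TPM, and that of the 33 types with it off was 4.13 TPM. It was on in all 4 Kenyon cell types, 5 of 9 lobula projection types, 17 of 32 other optic lobe types, 2 of 5 bridge types and 2 of 3 PAM dopaminergic types, and in none of the glial, monopolar, muscle or photoreceptor types. Its lowest mean was 0.39 TPM in the lamina neuron L2.

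5-HT1B, the other receptor coupled to inhibitory G proteins, was on more widely but at lower levels. Dm10 held 574 and 572 TPM, LPLC1 318 and 344 TPM, and KC_ab_p 232 and 275 TPM, while the median of the 49 types with 5-HT1B on was 48.1 TPM. It was on in all 9 lobula projection types, all 4 Kenyon cell types, 26 of 32 other optic lobe types and 3 of 4 photoreceptor types. It was the single receptor on in 5 types: LC4, LLPC1, and the photoreceptors R7, R8_Rh5 and R8_Rh6. In those photoreceptors the level was modest, at 41.1 and 33.0 TPM in R8_Rh6, 31.9 and 38.9 TPM in R8_Rh5 and 17.8 and 16.4 TPM in R7. The R7 driver also labels some R8 cells, per the study, and their part in the R7 level was not tested. The state was ambiguous in 10 types, the most for any of the receptors.

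The 2 inhibitory receptors were found together across cell types. Every one of the 30 types with 5-HT1A on also had 5-HT1B on, 16 types had 5-HT1B on and 5-HT1A off, and 8 types had both off. Over the 67 types the levels of 5-HT1A and 5-HT1B correlated at Pearson r = 0.78 (Spearman rho = 0.79), and r was 0.77 in the 62 neuronal types. The other 9 pairs of receptors lay between -0.01 and 0.29. These are descriptions over types whose libraries share protocols and capture background. Among 10131 coding genes 5-HT1B ranked 2 in likeness to 5-HT1A, and 5-HT1A ranked 1 in likeness to 5-HT1B. Of the coding genes between them, CG15109 and CG15115 had r of 0.20 and -0.06 with 5-HT1A, and 0.15 and 0.01 with 5-HT1B, and Gpxl was not examined.

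The gene most like 5-HT1A lies inside it. Ir56a, which encodes an ionotropic receptor of the chemosensory family, sits on the minus strand in an intron of 5-HT1A (2R, 19094267 to 19096174) and had r = 0.94 with it over 67 types. It reached 10 TPM in 22 types, and 5-HT1A was on in all 22. Its median was 17.1 TPM where 5-HT1A was on and 1.1 TPM where it was off, and its highest level, 97.9 TPM, was in LPLC1. In the types with 5-HT1A on the level of Ir56a was a median 11.7% of that of 5-HT1A. 5-HT7 had the same arrangement, with CG31007 (r = 0.88) and CG31008 (r = 0.83) both in an intron on its own strand. CG31007 reached 10 TPM in 25 types, all with 5-HT7 on, and CG31008 in 24 types, 22 of them with 5-HT7 on. Their levels were medians of 12.1% and 9.97% of 5-HT7 where 5-HT7 was on. The libraries were made from nuclear RNA and no source used here says that strand was used in counting, so reads of these genes and of unspliced receptor RNA cannot be told apart, and the levels of Ir56a, CG31007 and CG31008 are uncertain. The gene nested in 5-HT1B, CG43351, had r = 0.11 with it. After the nested genes and the other receptor, the genes most like each receptor had lower r: rad with 5-HT1A (0.57), CG42339 with 5-HT1B (0.65), bru1, dlp and CG13712 with 5-HT2A (0.56, 0.52 and 0.48), AstA-R1, Ilp3 and CG32052 with 5-HT2B (0.50, 0.48 and 0.48), and Patronin with 5-HT7 (0.50).

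**Figure D1:**
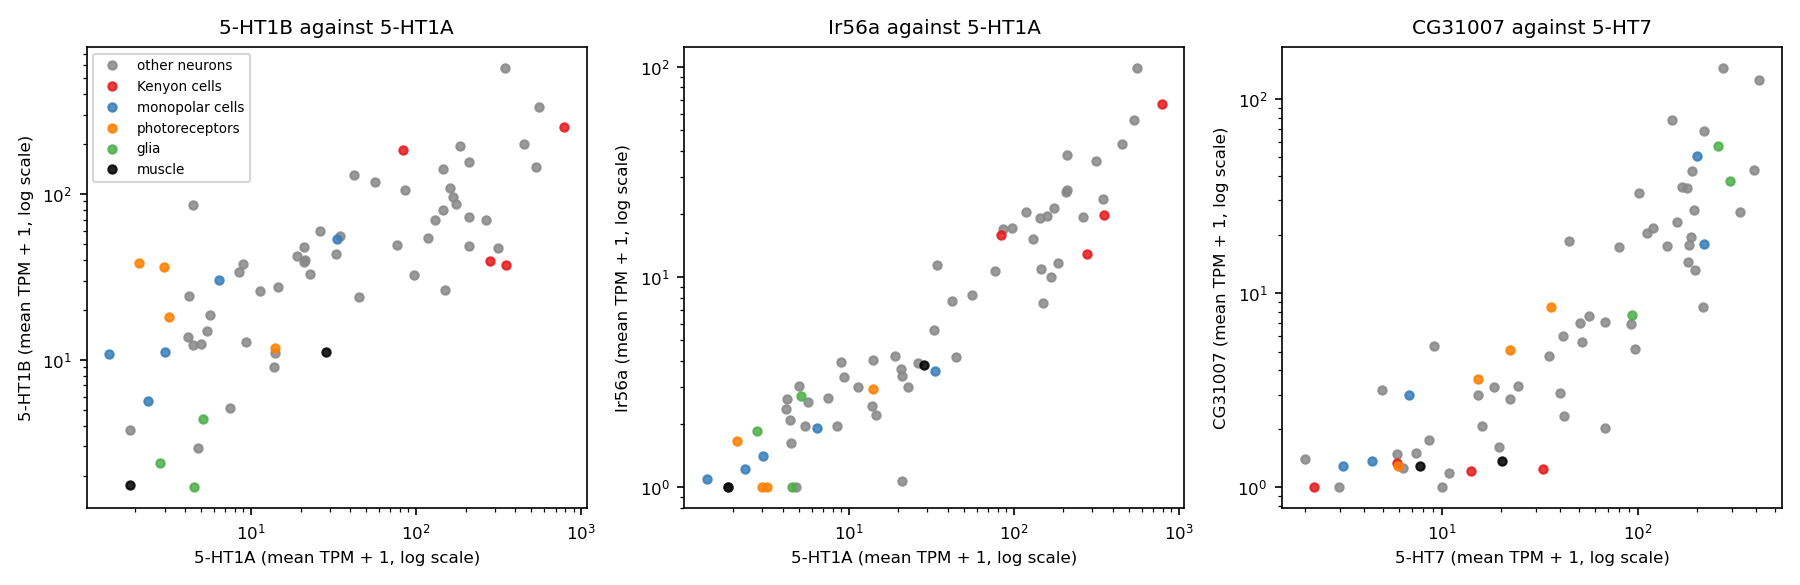
Mean TPM + 1 (log axes) in 67 cell types, 1 point per type, for 5-HT1B against 5-HT1A, Ir56a against 5-HT1A, and CG31007 against 5-HT7. Points with high 5-HT1A also have high 5-HT1B (r = 0.78), and the 2 nested genes follow their host genes (r = 0.94 and 0.88) at a lower level.

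5-HT2A, which couples to Gq, was on in 23 of the 32 other optic lobe types and in 5 types elsewhere (PAM_1, PAM_4, PB_3, L3 and Muscles_Head). Dm1 held 683 and 703 TPM, Tm20 586 and 650 TPM, Muscles_Head 638 and 433 TPM, and Dm4 a mean of 403 TPM (range 293 to 468, n = 4). For 3 of these 4 types the libraries came from drivers that, per the study, also label other cells. The drivers of Dm1 and Tm20 label pigment cells of the retina, and the libraries held the pigment cell gene Pdh at 1485 and 1306 TPM (Dm1) and 541 and 463 TPM (Tm20). The driver of Muscles_Head labels some cells that are not muscle, and its neuronal markers are given above. A second Muscles_Head driver, whose libraries did not pass the quality criteria, had Mhc at 4424 and 5384 TPM and 5-HT2A at 5.34 and 16.9 TPM, and in Muscles_App 5-HT2A was at 7.44 and 3.02 TPM. The part of pigment cells or neurons in these 5-HT2A levels was not tested. Outside these types the higher levels were in LPi-34 (262 and 261 TPM), Mi1 (181 and 185 TPM), T5 (mean 172 TPM) and Dm12 (mean 127 TPM).

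5-HT2B, the other receptor coupled to Gq, was on in the fewest types. L3 held 395 and 370 TPM, L2 315 and 286 TPM, LPLC2 240 and 230 TPM, and L5 177 and 200 TPM. The next levels were in transmedullary and medulla intrinsic neurons, with means of 139 TPM in Tm1, 116 in Mi9, 109 in Tm3 and 89.4 in Mi1. 5-HT2B was on in 4 of 5 bridge types at low levels (26.6 to 63.0 TPM over the 5 types), in 2 of 9 lobula projection types (LPLC2 and LC10b) and in 1 PAM type, PAM_3, at 77.8 and 84.2 TPM. It was on in none of the photoreceptor, Kenyon, glial or muscle types, and the median of the 47 types with it off was 3.33 TPM.

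5-HT7, which raises cyclic AMP, was high in several medulla intrinsic neurons and was on in all glial types. Mi1 held 439 and 389 TPM, Mi9 a mean of 390 TPM (range 338 to 454, n = 4) and Pm3 a mean of 271 TPM (range 263 to 279). It was the single receptor on in the 3 glial types and in Lawf1. The epithelial glia (Glia_Eg) had a mean of 294 TPM over 6 libraries (range 215 to 344), and Glia_Mg held 88.6 and 95.2 TPM. The PAM_4 and PB_3 drivers also label other cells, per the study. 5-HT7 was on in all 5 bridge types (43.3 to 195 TPM), in PAM_1 (163 and 198 TPM) and PAM_4 (96.8 and 84.9 TPM) but not in PAM_3 (15.9 and 1.97 TPM), and in none of the Kenyon cell types. Its level in R1-6, 35.1 TPM, was the highest of any type called off and rested on 1 of 4 libraries, described with the protocols below.

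Some related cell types shared their receptors, and others did not. The same combination was on in the 4 Kenyon cell types, in the 3 glial types, in R7, R8_Rh5 and R8_Rh6, and in LC6, LC16 and LC10a. LPLC1 had 5-HT1A at 565 and 544 TPM and 5-HT2B at 13.6 and 27.2 TPM, whereas LPLC2 had 5-HT1A at 4.04 and 4.88 TPM and 5-HT2B at 240 and 230 TPM, so the receptors that were high in one were low in the other. The lamina feedback neuron Lawf1 had 5-HT7 on (mean 78.9 TPM) and 5-HT1A off (3.19 TPM), and Lawf2 had 5-HT7 off (1.98 TPM) and 5-HT1A on (33.5 TPM). C2 had means of 96.2 TPM for 5-HT1A and 16.6 TPM for 5-HT2A, and C3 had 10.4 TPM for 5-HT1A and 87.9 TPM for 5-HT2A. LC10a had 5-HT7 on (34 TPM) and 5-HT2B off (3.48 TPM), with 14.3 TPM for 5-HT7 and 32.4 TPM for 5-HT2B in LC10b. The LC10b libraries also held the muscle gene Mhc at a mean of 810 TPM. These sets and pairs were picked after their values were seen and carry no test.

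Counted by cell type, 4 types had no receptor on (L1, Lai, Muscles_App and R1-6), 12 had 1, 20 had 2, 15 had 3, 15 had 4 and 1 had 5. The type with all 5 was Mi9. Its means were 55.1 TPM for 5-HT1A, 117 for 5-HT1B, 95.8 for 5-HT2A, 116 for 5-HT2B and 390 for 5-HT7. Per the study, at least 1 Mi9 driver also labels some Mi4 cells. Mi4 had 5-HT1A, 5-HT1B, 5-HT2A and 5-HT7 on and 5-HT2B ambiguous. The part of Mi4 cells in the Mi9 levels was not tested. The Mi9 means of 5-HT1A and 5-HT2A lay below the medians of the control captures described below (60.7 and 154 TPM). Those of 5-HT1B, 5-HT2B and 5-HT7 lay above theirs. The most frequent combination was 5-HT1A, 5-HT1B, 5-HT2A and 5-HT7, in 9 types. 5-HT1A with 5-HT1B alone was found in 7 types, which were the 4 Kenyon cell types, LPLC1, Lawf2 and T1. In L1 the 5 means lay between 2.04 and 15.8 TPM, and in Lai between 2.90 and 17.8 TPM.

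The lamina monopolar cells L1 to L5, the first relay of photoreceptor signals, stood out for 5-HT2B. Over the 5 types its mean level had a lowest of 6.5, a median of 188 and a highest of 382 TPM, against a lowest of 0.36, a median of 5.91 and a highest of 235 TPM in the 57 other neuronal types. The groups overlapped, and no other neuronal type was above L3. The difference was 2.99 on the log2(TPM + 1) scale (SE 0.90, adjusted p = 0.0187, limma, two-sided), where 21% of genes were called higher in monopolar cells. 5-HT1A went the other way, with 0.39, 2.04 and 32.3 TPM (lowest, median, highest) in monopolar cells against 0.86, 33.5 and 785 TPM in the other neurons, a log2 difference of -3.03 (SE 1.09, adjusted p = 0.0369) where 4.07% of genes were called lower. The 5-HT2B call was lost without L2, L3 or L5, and the 5-HT1A call without L1, L2, L4 or L5 and with a pseudocount of 5 TPM. All monopolar libraries were made by INTACT, so a fit on TAPIN libraries alone could not be made. The other neurons held types captured by either protocol, and the part of protocol in these differences was not tested. In the 4 INTACT control captures, which hold no chosen cell type, 5-HT2B was at 131, 21.7, 35.2 and 88.0 TPM. These values lay below every library of L2, L3 and L5 and above every library of L1 and L4. The part of capture background was not tested. The 5 types were not alike: 5-HT2B was at 14.6 and 15.3 TPM in L4 and at 4.18 to 9.22 TPM in the 4 libraries of L1, while 5-HT7 was on in L4 (206 and 224 TPM) and L5 (191 and 205 TPM) and had means of 2.10 to 5.79 TPM in L1, L2 and L3. Drivers that label L1 and L2 together held 5-HT2B at 202 and 200 TPM (first driver) and 250 and 205 TPM (second driver), between the levels of L1 and L2.

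The dissected lamina, which holds the terminals of R1-6, the monopolar cells and glia, was compared with the rest of the optic lobe in 4 libraries each. 5-HT2B held 54.6, 54.7, 41.7 and 47.8 TPM in lamina and 18.4, 21.9, 19.2 and 21.7 TPM in the rest. It did not overlap, and it was 1.25 higher in lamina on the log2 scale (SE 0.14, adjusted p = 1.03e-04, limma). The other receptors were lower in lamina without overlap. 5-HT1A held 7.68, 24.0, 14.8 and 23.5 TPM in lamina and 94.1, 97.9, 101.5 and 113 TPM in the rest (log2 difference -2.59, SE 0.31, adjusted p = 1.25e-04). 5-HT7 held 8.32, 13.7, 7.65 and 7.16 TPM against 34.5, 37.1, 34.2 and 37.0 TPM (-1.89, SE 0.21, adjusted p = 8.30e-05). 5-HT1B was at 7.16 to 20.2 TPM in lamina and 54.8 to 59.9 TPM in the rest (-2.06, SE 0.29, adjusted p = 2.95e-04), and 5-HT2A at 21.4 to 32.4 TPM in lamina and 52.7 to 59.9 TPM in the rest (-1.07, SE 0.16, adjusted p = 4.68e-04). 5-HT2B was thus 1 receptor among the 14.2% of genes called higher, and the 4 others were among the 45.4% called lower. The median gene differed by -0.47, and by -0.14 after quantile normalization, and the split of higher and lower calls moved with it (1061 and 3391 genes, against 1551 and 2155 after quantile normalization), but the 5 receptors kept their direction and call in all 13 alternatives. In dissected tissue fewer cells of a type and less RNA per cell cannot be told apart. The glial gene repo was at 113 to 213 TPM in lamina and 45.6 to 58.9 TPM in the rest, and the photoreceptor opsin gene ninaE at 4697 to 10278 TPM in lamina and 93 to 126 TPM in the rest, and their part in the receptor differences was not tested.

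**Figure D2:**
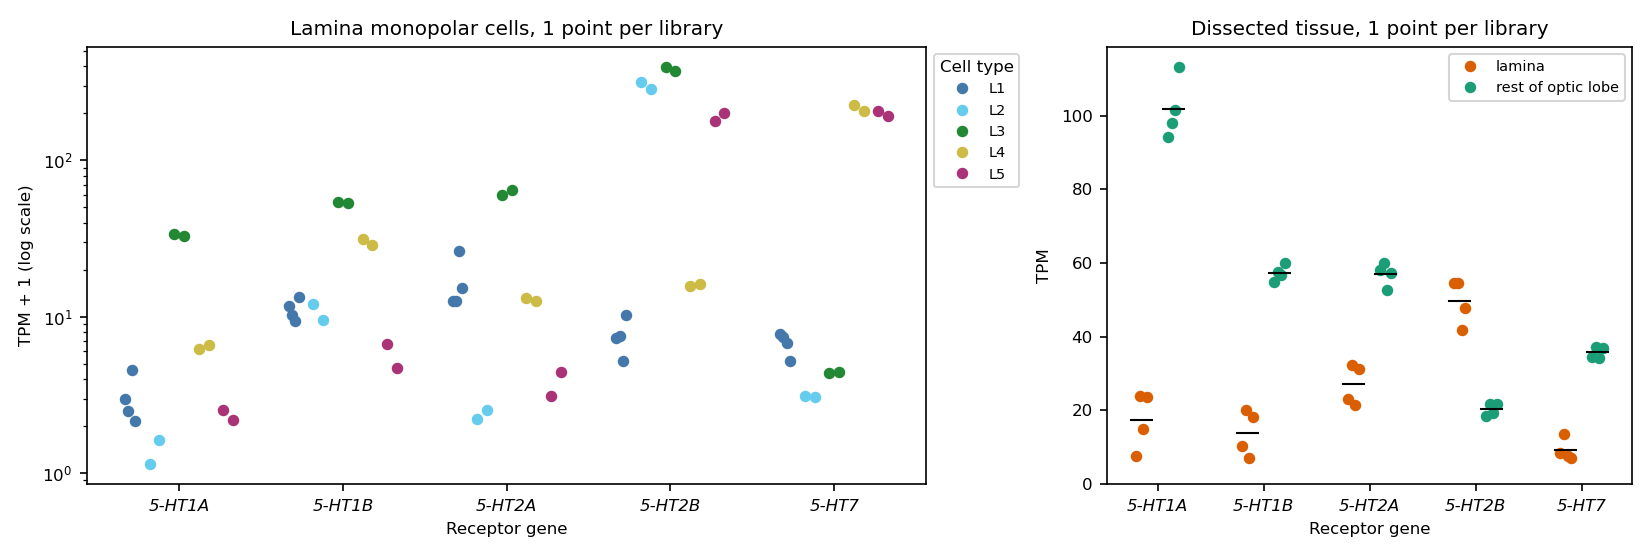
Left, TPM + 1 (log axis) of the 5 receptors in each library of L1 to L5. Right, TPM (linear axis from 0) in 4 libraries each of dissected lamina and rest of optic lobe, with a bar at the mean. 5-HT2B is high in L2, L3 and L5, and is the receptor whose 4 lamina libraries (41.7 to 54.7 TPM) lie above the rest of the optic lobe (18.4 to 21.9 TPM).

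Among the other classes, 3 receptors passed the test against neurons of other classes. In the 9 lobula projection types 5-HT2A had means of 2.02 (lowest), 4.74 (median) and 22.8 TPM (highest), against 1.38, 40.7 and 693 TPM in the 53 other neuronal types. The groups overlapped, but 30 of the 53 were above every lobula projection type. The log2 difference was -2.44 (SE 0.68, adjusted p = 0.0398, limma) where 0.124% of genes were called lower. The call was lost with no filter on low values and with TAPIN libraries alone (adjusted p = 0.0630). This class was not refitted with each of its cell types left out, as the other classes were. In the 3 glial types 5-HT1B had means of 0.70, 1.39 and 3.42 TPM, against 1.92, 38.7 and 573 TPM (lowest, median, highest) in the 62 neuronal types, with 60 of the 62 above all glia. The log2 difference was -4.02 (SE 0.91, adjusted p = 3.96e-04), the call held in all 8 alternatives, and 11.6% of genes were called lower in glia. 5-HT7 in glia, at 91.9, 253 and 294 TPM against a median of 42.1 TPM in neurons, did not pass (2.14, SE 1.23, adjusted p = 0.232, with 11.2% of genes called higher). In the 4 photoreceptor types 5-HT1A had means of 1.12, 2.09 and 13.0 TPM (lowest, median, highest) against 0.39, 32.9 and 785 TPM in the 58 other neuronal types. The difference was -3.25 (SE 1.22, adjusted p = 0.0347) where 19.6% of genes were called lower, and it was called in 4 of 9 alternatives (adjusted p up to 0.120 over all 9), the call being lost with a pseudocount of 5 TPM, after quantile normalization and without R7, R8_Rh5 or R8_Rh6.

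In Kenyon cells and bridge neurons no receptor passed, although the levels were far apart from the rest in places. Kenyon cells, the intrinsic neurons of the mushroom body, had 5-HT1A at 82.9, 314 and 785 TPM (lowest, median, highest) against 0.39, 21.0 and 555 TPM in the 58 other neuronal types. The log2 difference was 3.35 (SE 1.21, adjusted p = 0.0764, limma), with 6.31% of genes called in either direction. 5-HT7 in Kenyon cells was at 1.22, 8.92 and 31.7 TPM, against 0.99, 50.0 and 414 TPM (-2.64, SE 1.04, adjusted p = 0.103). The bridge neurons had 5-HT2B at 26.6, 34.4 and 63.0 TPM, against 0.36, 5.91 and 382 TPM in the 57 other neuronal types, with 44 of the 57 below every bridge type (1.83, adjusted p = 0.138, where 24.2% of genes were called in either direction). These comparisons moved with the scaling of the libraries: the median gene differed by -0.52 in Kenyon cells and -0.66 in bridge neurons, and by -0.07 and -0.12 after quantile normalization.

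T4 and T5, the direction-selective neurons for moving light and dark edges, differed in 5-HT1A. T4 was labeled with drivers strongest in the subtypes T4b and T4c, T5_d1 with one strongest in T5c and T5d, and T5_d2 with one mainly in T5a and T5b, and both T5 drivers also label some T4 cells weakly. 5-HT1A held 31.2, 35.0, 25.9 and 35.7 TPM in T4 libraries, against 245, 302, 143 and 142 TPM in T5 libraries. All T5 libraries were above all T4 libraries. The log2 difference was -2.60 (SE 0.31, adjusted p = 0.00164, limma, two-sided), and the two-sided exact permutation p was 0.0286, the smallest that 4 against 4 libraries allow. The call held in all 14 alternatives (adjusted p 1.9e-08 to 0.0273), where 0.944% of genes were called lower in T4. The permutation test took all libraries as exchangeable, although T5 libraries of the same driver lay closer to each other. It therefore does not measure the spread between drivers.

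5-HT7 went the other way without passing the test over all genes. It held 55.2, 67, 64.7 and 79.1 TPM in T4, against 3.92, 13.7, 14.5 and 41.6 TPM in T5, again without overlap. The log2 difference was 2.18 (SE 0.58, adjusted p = 0.0866, limma), with 0.787% of genes called higher in T4. The exact permutation p was 0.0286, again with all libraries taken as exchangeable. In limma 5-HT7 passed in 4 of 14 alternatives, among them without T5_d1 replicate 1 and without T5_d2 replicate 2 (adjusted p 8.4e-04 to 0.241 over all 14). 5-HT2A held 104, 125, 93.3 and 73.7 TPM in T4 and 98.8, 169, 197 and 223 TPM in T5, with overlap (-0.75, SE 0.29, adjusted p = 0.261), and was called without T5_d1 replicate 1 (adjusted p = 0.0256). 5-HT1B overlapped at 33 to 53 TPM in T4 and 48.4 to 90.3 TPM in T5 (-0.71, SE 0.33, adjusted p = 0.367). 5-HT2B stayed below the filter, at 1.51 to 4.14 TPM in T4 and 1.08 to 7.99 TPM in T5. TfAP-2, a transcription factor gene that marks T4, was at 375 to 417 TPM in T4, against 0.23 and 3.38 TPM in T5_d1 and 13.7 and 7.48 TPM in T5_d2. ninaE was at 371 to 930 TPM in T4 and 956 to 2629 TPM in T5, and its part in the receptor differences was not tested.

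Drivers that label both types were read beside the T4 marker. T4.T5_d1, with TfAP-2 at 217 and 175 TPM, held 5-HT1A at 65.6 and 71.2 TPM and 5-HT7 at 64.5 and 79.3 TPM. T4.T5_d2, with less TfAP-2 (51.7 and 38.3 TPM), held more 5-HT1A (140 and 160 TPM) and less 5-HT7 (18.6 and 20.4 TPM). For these 2 receptors the driver with less of the T4 marker was nearer to T5. 5-HT2A did not follow, at 72.9 and 44.2 TPM in T4.T5_d1, lower on average than in T4 and in T5, and at 143 and 155 TPM in T4.T5_d2. 5-HT7 in T4.T5_d1 did not lie between the types either, with a mean of 71.9 TPM against 66.5 TPM in T4. That driver held less TfAP-2 than T4. Over all drivers that label several types, 28 of 40 pairs of a driver and a receptor lay within the range of the labeled types. Between T5_d1 and T5_d2 no receptor was called, where 0.0297% of genes were called in either direction: 5-HT1A was at 245 and 302 TPM in T5_d1 and 143 and 142 TPM in T5_d2 (0.93, SE 0.41, adjusted p = 0.988, limma), and 5-HT7 at 3.92 and 13.7 TPM in T5_d1 and 14.5 and 41.6 TPM in T5_d2 (-1.59, SE 1.26).

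**Figure D3:**
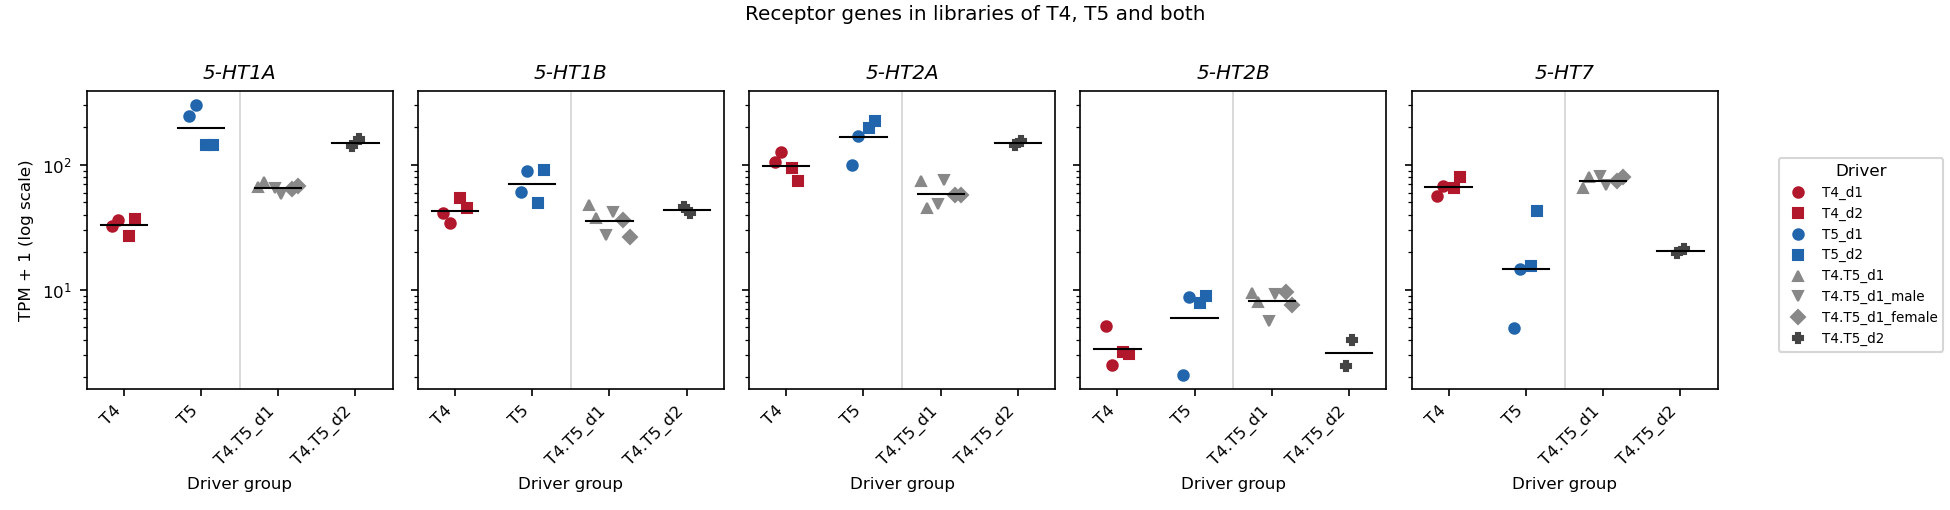
TPM + 1 (log axis) of each receptor in every library of T4, T5 and the drivers that label both, male and female captures included, with a bar at the mean of log(TPM + 1). The 4 T5 libraries lie above the 4 T4 libraries for 5-HT1A (142 to 302 TPM against 25.9 to 35.7 TPM) and below them for 5-HT7.

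T4.T5_d1 was also captured from males and from females, with 2 libraries each. 5-HT1A was at 64.2 and 57 TPM in males and 63.4 and 66.8 TPM in females, 5-HT7 at 79.9 and 67.6 TPM in males and 73.0 and 78.2 TPM in females, and 5-HT2A at 48.0 and 74.0 TPM in males and 56.5 and 56.5 TPM in females. All receptors overlapped between the sexes, with log2 differences of -0.10 to 0.14 (SE 0.31 to 0.47) for the 4 that were tested. 5-HT2B stayed below the filter, at 4.68 and 8.31 TPM in males and 8.52 and 6.53 TPM in females. No receptor was called, nor was any of 6329 genes tested by limma (percent called 0, with 90 genes at an unadjusted p under 0.05).

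In R8 against R7, the inner photoreceptors, no receptor was called, where 6.8% of genes were called in either direction. The R7 driver also labels some R8 cells of the dorsal rim, per the study. R7 libraries held the R8 marker sens at 5.63 and 16.8 TPM, and the part of R8 cells in the R7 levels was not tested. 5-HT1B was at 31.9, 38.9, 41.1 and 33.0 TPM in R8 and 17.8 and 16.4 TPM in R7. It did not overlap, but the log2 difference of 1.04 (SE 0.30) had an adjusted p of 0.0793 (limma). 5-HT2A was at 1.6 to 8.11 TPM in R8 and 12.0 and 20.0 TPM in R7 (-1.70, adjusted p = 0.176), and was called when the spread was estimated from all libraries (adjusted p = 0.0098). 5-HT7 was at 5.13, 4.76, 16.2 and 12.4 TPM in R8 and 29.0 and 13.4 TPM in R7, with overlap (-1.13, adjusted p = 0.317).

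The capture protocol and the driver moved some receptor levels. R1-6, the outer photoreceptors, was captured by both protocols, in 2 libraries each with the same driver. 5-HT2A was at 54.9 and 78.5 TPM with INTACT and 10.8 and 11 TPM with TAPIN, a log2 difference of 2.49 (SE 0.33, adjusted p = 0.0116, limma) where 7.05% of genes were called higher with INTACT. The call was lost without the first or second TAPIN library (adjusted p up to 0.0731). 5-HT1A was at 21.1 and 20.7 TPM with INTACT and 4.79 and 5.57 TPM with TAPIN (1.83, SE 0.46, adjusted p = 0.0532). 5-HT7 was at 7.17 and 109 TPM with INTACT and 10.2 and 13.9 TPM with TAPIN, so its mean in R1-6 rested on 1 library. The pigment cell gene Pdh was at 301 and 398 TPM with INTACT and 37.6 and 70.5 TPM with TAPIN. Control captures also differed by protocol: 5-HT2A was at 342, 248, 217 and 169 TPM in the 4 INTACT controls and at 0 to 169 TPM in the 8 TAPIN controls, and 5-HT1A at 133, 130, 226 and 113 TPM in the INTACT controls and 0 to 85.9 TPM in the TAPIN controls. The part of pigment cells and of capture background in these differences was not tested.

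In 16 types with several drivers or protocols there were 18 pairs to compare. A difference of over 4-fold without overlap was found in 1 pair for 5-HT1A, 0 for 5-HT1B, 2 for 5-HT2A, 1 for 5-HT2B and 2 for 5-HT7, and the median absolute log2 difference was 0.36 for 5-HT1B and 0.69 for 5-HT2A at the ends of the range. The same counts were not made over all genes, so they do not show whether receptors varied between drivers more than other genes. For 5-HT7, Glia_Psg held 75.6 and 52.3 TPM with the first driver and 447 and 439 TPM with the second (repo at 471 and 1213 TPM, and at 402 and 456 TPM). KC_gd held 5-HT7 at 70.5 and 52.1 TPM with the first driver and 2.96 and 1.11 TPM with the second, and the study lists a few other optic lobe and central brain cells for the first. For 5-HT7 in KC_gd, R1-6 and T5, some libraries were called on and others off. PB_4 held 5-HT1A at 265 and 254 TPM with the first driver and 47.7 and 32.7 TPM with the second, and 5-HT7 at 52.5 and 58.2 TPM with the first and 184 and 179 TPM with the second. LC6 held 5-HT2A at 8.19 and 6.44 TPM with the first driver and 27.1 and 49.5 TPM with the second, where Pdh was at 20.6 and 6.02 TPM, and at 60.2 and 200 TPM. In these types the levels of the drivers did not overlap, and the type mean averages over them.

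**Figure D4:**
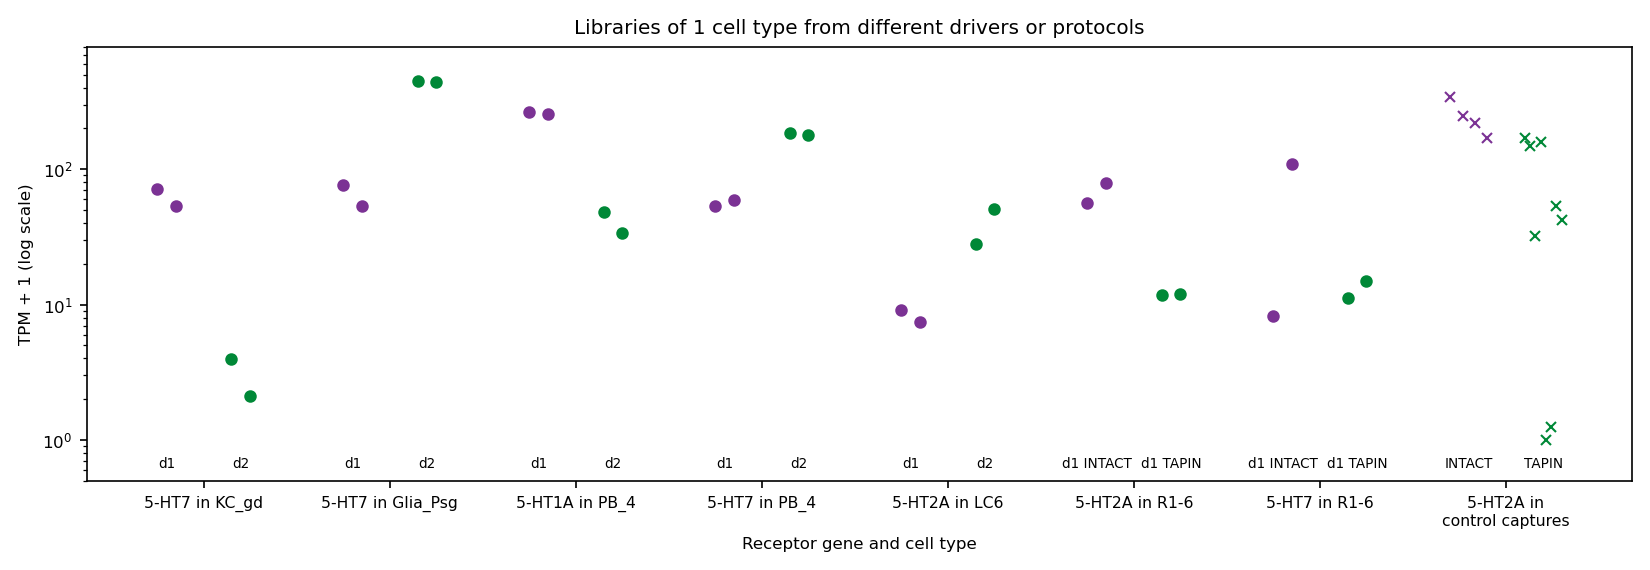
TPM + 1 (log axis) of the named receptor in each library of cell types captured with 2 drivers (d1 purple, d2 green) and of R1-6 captured by INTACT (purple) or TAPIN (green), with 5-HT2A in 12 control captures as crosses. 5-HT7 in Glia_Psg is 75.6 and 52.3 TPM with d1 and 447 and 439 TPM with d2.

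Control captures (no driver, beads with an anti-FLAG antibody, or labeled as mock) show what the beads hold without a chosen cell type. In 12 such libraries every receptor was at 0 TPM in at least 1, and the medians were 60.7 TPM for 5-HT1A, 49.1 for 5-HT1B, 154 for 5-HT2A, 18.0 for 5-HT2B and 16.5 for 5-HT7. Type means above these medians were found in 25 of 67 types for 5-HT1A, 24 for 5-HT1B, 7 for 5-HT2A, 21 for 5-HT2B and 46 for 5-HT7. The highest control values were 226, 1069, 342, 131 and 314 TPM in the same order, and 9, 0, 4, 5 and 3 type means were above them. Replicate controls could differ widely (5-HT1B was at 1069 TPM in one library and 0 in its replicate), and the amount of background RNA in a capture of tagged nuclei is not given by these values.

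The genes that make, move and respond to serotonin were described with the receptors, from a list of 45 genes of which 44 were found. Trh, the neuronal tryptophan hydroxylase that makes serotonin, and Hn, which also hydroxylates tryptophan, were on in 0 of 67 types. Trh RNA was not absent everywhere. Its median over types was 3.2 TPM, but it was at 89.5 and 82.2 TPM in Tm3, with means of 42.8 TPM in R1-6 and 38.0 TPM in C2. Control captures held Trh at 0 to 22.4 TPM. SerT, the serotonin transporter, was on in 5 types (the 3 glia, Lawf1 and Tm2), Vmat, the vesicular monoamine transporter, in 4 (Mi15 and the 3 PAM types), and Ddc, the decarboxylase, in 28. Of the G protein subunits, Galphao was on in 51 types, Galphas in 59, Galphai in 7 and Galphaq in 4, the photoreceptors. Off did not mean absent for these genes. Galphaq had type means of 175 to 3491 TPM with a median of 365 TPM, and Galphao had type means of 245 to 3166 TPM. SerT in Lawf1 was at 278 and 310 TPM with the first driver, captured by INTACT, and at 14.2 and 16 TPM with the second, captured by TAPIN. The receptors were also higher with the first Lawf1 driver (log2 differences 0.90 to 1.73), 5-HT7 at 125 and 119 TPM with the first and 38.8 and 33.2 TPM with the second. Driver and protocol changed together in Lawf1. The share of all genes that moved the same way was not counted, so this is not a result about the receptors.

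The pathway genes moved little between T4 and T5 and broadly between lamina and the rest. In T4 against T5, 1 of 10 cyclic AMP genes tested rose (the adenylyl cyclase gene Ac13E), 1 of 6 phospholipase C genes fell (the protein kinase C gene Pkc53E), and none of the 9 G protein subunit genes passed, where 1.73% of genes were called. In lamina 2 of 3 synthesis and transport genes rose (SerT and Vmat) and 1 fell (Ddc), 4 of 10 G protein subunit genes rose and 5 fell, 1 of 11 cyclic AMP genes rose and 6 fell, and 4 of 5 phospholipase C genes fell, where 59.6% of genes were called. In Kenyon cells, where 1.7% of genes were called higher and 4.61% lower, 4 of 11 cyclic AMP genes rose: dnc, a phosphodiesterase, rut, an adenylyl cyclase, and the protein kinase A subunit genes Pka-C1 and Pka-R2. Of the 11 G protein subunit genes Gbeta13F rose and Galphaf fell in Kenyon cells.

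In glia, where 11.2% of genes were called higher and 11.6% lower, SerT rose among 5 synthesis and transport genes. Of 11 G protein subunit genes Galphai rose and Galphao, Gbeta5 and Ggamma30A fell, and of 11 cyclic AMP genes CrebB rose and Ac3, Pka-R2 and rut fell. In monopolar cells, where 21% were called higher and 4.07% lower, none of 11 cyclic AMP genes rose and Ac13E, dnc and rut fell. Gbeta5 rose and Galphao fell there among the G protein subunit genes, and of 6 phospholipase C genes sl rose and Itp-r83A fell. In photoreceptors, where 10.6% were called higher and 19.6% lower, Trh rose among 4 synthesis and transport genes tested, although its state was on in no type. Galphaq, Gbeta76C and Ggamma30A rose and Galphao and Gbeta13F fell among 11 G protein subunit genes of photoreceptors, and norpA and inaC rose and Plc21C fell among 6 phospholipase C genes; Galphaq, norpA and inaC are known for their part in phototransduction. In lobula projection neurons, where 1.69% of genes were called in either direction, no gene of these lists passed.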

How the data were processed

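Nuclear RNA was amplified with the Nugen Ovation v2 kit and sequenced, and the authors quantified it with kallisto 0.43.1 (per the processing notes; transcripts of Ensembl, with spike-ins and tag constructs, later removed). The deposited gene and transcript tables hold TPM that the authors rescaled after that removal. Type tables are their means over libraries, and the deposited fractions (0 to 1) are the authors' modeled probabilities that a gene is on. Depth is not given. log2(TPM + 1) was fitted with limma 3.58.1 in R 4.3.3 (empirical Bayes with trend), over genes that reached 10 TPM in 2 or more of the libraries (or types) fitted, two-sided, with Benjamini-Hochberg adjusted p at 0.05 over all genes tested. Class comparisons took the mean of log2 values of a cell type as the replicate. Library titles gave groups. 47 libraries that failed the authors' quality criteria and 16 controls entered no comparison. The fits were tested on simulated data. Receptors, pathway genes and, for each receptor, the 3 genes most like it were named. The members and lists were chosen with earlier results of these data known. The alternatives were another pseudocount, no filter, quantile normalization, a spread shared over all libraries, driver means, TAPIN libraries only, a replicate block and leaving out each replicate.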

Additional observations from a re-analysis of the deposited data

Results flagged for a closer look

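In 85 pairs of a receptor and a group of 4 to 10 libraries, 2 had a library far from the others, where chance gives about 1 in 20. 5-HT7 in R1-6 was 109.06 TPM in the second INTACT library and 7.17 to 13.88 TPM in the others. 5-HT2B in T5 was 1.08 TPM in T5_d1 replicate 1 and 6.82 to 7.99 TPM in the others. Broad drivers and libraries that failed the authors' quality criteria were also read, with passing and failed libraries of a driver taken apart. Every library of such a group was above all 12 control captures in 4 pairs of a group and a receptor. 5-HT1A had means of 1025.6 TPM in Crz_d1 (1043 and 1008 TPM) and 353.42 TPM in MBON_bp1_d1 (481 and 226 TPM). 5-HT2B had a mean of 160.765 TPM in the passing NPF_d1 libraries (173 and 148 TPM). The failed NPF_d1 libraries held 5-HT2B at 94.9 and 278 TPM, the lower value below the highest control (131 TPM). 5-HT7 was at 385.85 TPM in the 1 Dm12_d1 library that failed those criteria.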

How the results depend on the processing

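Among the receptor differences under the alternatives, 477 values kept direction and call, 17 lost the call, 10 gained it and 9 reversed. Receptor calls moved as follows beside the replicates left out. In T4 against T5, 1 receptor was called higher after quantile normalization and 1 with all libraries fitted at once. In R8 against R7, 1 was called lower with all libraries fitted at once. In R1-6, INTACT against TAPIN, 2 were called higher with a pseudocount of 5 TPM and 2 with all libraries fitted at once. None (0) was called lower in photoreceptors with a pseudocount of 5 TPM or quantile normalization, 0 in monopolar cells with that pseudocount, and 0 in lobula projection neurons with no filter or with TAPIN libraries alone. With a mean of 10 TPM or more read as on, 5-HT2A was on in 46 types and 5-HT2B in 28. With 1 replicate or cell type left out, the receptors called ranged 0 to 1 higher and 1 to 2 lower in T4 against T5, 0 to 1 lower in T5_d1 against T5_d2, 0 to 2 higher with INTACT, 0 to 1 lower in photoreceptors, and 0 to 1 higher and 0 to 1 lower in monopolar cells. Lobula projection types were not left out in turn. Log2 differences reversed in these cases, none of them called: 5-HT1B in T5_d1 against T5_d2 (-0.31 to 0.57, with -0.14 among them), and, in males against females, 5-HT1B (-0.16 to 0.44, with -0.09), 5-HT2A (-0.23 to 0.38) and 5-HT7 (-0.16 to 0.081, with 0.0099, and 0.0045 after quantile normalization). 5-HT7 with INTACT against TAPIN ranged from -0.66 (without the INTACT library at 109 TPM) to 3.09 (called, without the other). The cause was not tested.

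Counts over all genes moved more. T4 against T5 gave 132 genes, and 75 with no filter, 273 after quantile normalization, 1328 with all libraries, 61 with driver means and 56 to 413 with 1 replicate left out. The other counts were 2 for the T5 drivers (4 with a pseudocount of 5 TPM and 4 with no filter, 539 with all libraries, 1 to 1208 with 1 replicate left out), 0 for the sexes (16 with all libraries, 4 to 69), 453 for R8 against R7 (1424 with all libraries, 101 to 306), 4452 for lamina (2554 with all libraries), 688 for INTACT against TAPIN (280 with no filter, 79 to 1188), 2933 for photoreceptors (1922 to 2428), 2435 for monopolar cells (464 to 1689), 613 for Kenyon cells (353 after quantile normalization, 391 with TAPIN libraries, 94 to 719), 2349 for bridge neurons (594 after quantile normalization, 457 with TAPIN libraries, 129 without Dm1, Tm20, PAM_4 and PB_3, whose drivers also label other cells, 107 to 2473) and 164 for lobula projection neurons (251 and 88 with the first and second of these). Quantile normalization moved the higher and lower calls of photoreceptors to 1537 and 1596 (1029 and 1904 before), of monopolar cells to 1084 and 653 (2040 and 395), of Kenyon cells to 221 and 132 (165 and 448), of bridge neurons to 197 and 397 (161 and 2188) and of lobula projection neurons to 195 and 56 (152 and 12).

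Same-numbered libraries were not paired by the labels, and their deviations correlated at -0.09 to 0.10 for T4 and T5, 0.11 for the T5 drivers, -0.022 to 0.044 for R8 and R7, and -0.0017 to 0.15 for lamina, where not every library correlated best with its own number. The replicate block gave 127 genes for T4 against T5, 35 for the T5 drivers, 1 for the sexes, 276 for R8 against R7 and 4291 for lamina, and changed no receptor call. For the sexes the correlation was -0.54, and a crossed block, added after seeing the data, gave 153 genes, with 0 receptors. KC_gd taken from its first driver alone, also added after seeing the data, gave 0 receptor calls in Kenyon cells. No paired analysis was possible for INTACT against TAPIN because the libraries share no replicate number, or between cell classes because these were fitted on means of cell types. TPM without depth sets no counting limit here, and with 2 libraries in most types small differences cannot be told from replicate spread.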
